A study of Arabidopsis thaliana with 8 samples.

Results

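The genes described here are 38 MIKC-type MADS-box genes of Arabidopsis thaliana, taken as a fixed list of locus identifiers from the 27432 protein-coding nuclear genes of the gene table. A gene was counted when a called interval of the histone fusion H2B-GFP reached into its body or came within 1 kb of it. By role, 11 are floral organ genes, 19 act in flowering time or inflorescence identity, 4 in roots and 4 elsewhere in flowers and seeds.

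Chromatin immunoprecipitation followed by sequencing (ChIP-seq) had been done on whole seedlings 7 days after germination. The 8 samples form 4 groups of 2 replicates, a pulldown and an input of each of 2 lines. The first line carried AtGBPL3, a guanylate-binding protein-like GTPase, as a genomic GFP fusion under its own promoter in the gbpl3-5 mutant (comp2). The second line carried AtH2B-GFP under the p35S promoter in Col-0, so the tagged histone was driven by a viral promoter beside the plant's own H2B genes. Both fusions were pulled down with the same GFP-binding agarose, and only the pulldowns are described. Whether replicates were grown as separate batches of seedlings is not stated in the labels. Peak lists hold no expression, so the tissue label could not be checked against marker genes.

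MIKC-type proteins are transcription factors with a DNA-binding MADS domain followed by the I, K and C regions that serve dimer and tetramer formation. Floral organ identity proteins act in combinations that specify sepals, petals, stamens, carpels and ovules, while FLC and its relatives repress flowering. Many of these genes are known targets of the Polycomb complexes, which keep them silent in vegetative tissue through methylation of histone H3. H2B is a core histone of nearly all nucleosomes, so an interval in its lists marks local enrichment and not the mere presence of nucleosomes. No sequence is printed, since the reference used here holds gene names and positions without sequence.

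The H2B-GFP lists differed in length, which sets how many genes any list of genes can have marked. Replicate 1 held 1361 nuclear intervals covering 575 kb and replicate 2 held 8608 covering 4547 kb. The fold enrichment that the authors give for each summit relative to nearby background had a median of 1.88 (SD 0.227) in replicate 1 and 1.76 (SD 0.216) in replicate 2. Read depth is unknown for each library, so the lists are described separately and no fold is compared between them.

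Few of the MADS-box genes had an H2B-GFP interval. In replicate 1 none of the 38 did, where 5.99% of all protein-coding genes did. In replicate 2 there were 4 (10.5%, Wilson 95% interval 4.17 to 24.1), where 34.8% of all protein-coding genes did. These were FLC, CAL, SHP1 and AGL15, and they were also all that either replicate gave, against 36.0% of all protein-coding genes. No member had an interval of both replicates, and 4.84% of all protein-coding genes did. The intervals on these shares cover counting error only, and members are related genes, not replicates. No test was made of the counts, because the list was drawn up with earlier results of these data known. Whether a low share is particular to these genes was not tested either.

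The members are long genes, from 1845 to 6067 bases with a median of 3749, and long genes have more room for an interval. Among other protein-coding genes whose length lay within 10% of a member's, averaged over the members, 7.50% had a replicate 1 interval, 41.1% a replicate 2 interval and 42.4% one of either. At those shares 2.85 and 15.6 of the 38 would be marked in replicates 1 and 2. In replicate 1 the gap to genes of like length was thus under 3 genes, and the Wilson interval of its 0 of 38 reached 9.18%, above the 7.50%. In replicate 2 the members had 4 marked genes beside those 15.6. Neither replicate's gap was tested. A Wilson interval takes genes as separate draws, which related and adjacent members are not, and this limit holds for every such interval given here.

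**Figure D1:**
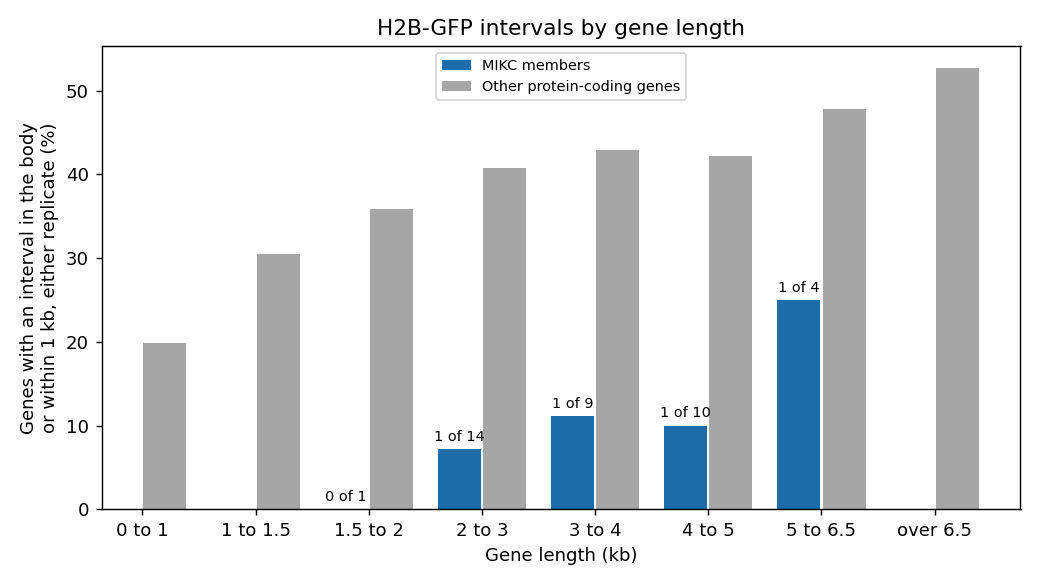
Share of genes with an H2B-GFP interval of either replicate in the body or within 1 kb (y axis, %) by gene length (x axis, kb), for the MIKC members (left bars, with counts) and all other protein-coding genes (right bars). The members lie below the other genes in each class that holds any: 1 of 14 members against 40.7% between 2 and 3 kb, 1 of 9 against 42.9% between 3 and 4 kb, and 1 of 10 against 42.2% between 4 and 5 kb.

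Within gene bodies the counts were lower still. Only FLC had an H2B-GFP interval in its body (1 of 38, 2.63%, Wilson 95% interval 0.466 to 13.5), against 26.1% of all protein-coding genes and 33.1% of those of like length for either replicate. By list, 0 of 38 members had one in replicate 1 and 1 of 38 in replicate 2, against 4.08 and 25.2% of all protein-coding genes. Genes of like length had 5.63 and 31.7%. The Wilson interval of the 0 of 38 in replicate 1 reached 9.18%, above both replicate 1 shares. Replicate 2 intervals covered 355 of the 136689 bases of all member bodies, or 2.60 bases per kb. All of these bases lay in FLC, so the value rests on 1 interval. In the 15036 other genes between the shortest and the longest member they covered 66.2 bases per kb. Replicate 1 intervals covered 0 and 7.28 bases per kb in the members and in those genes.

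Of the floral organ genes, 1 of 11 had an interval (9.09%, Wilson 95% interval 1.62 to 37.7), and of the flowering-time genes 3 of 19 (15.8%, 5.52 to 37.6). Genes of like length had 42.4 and 42.8% for the same groups, and all protein-coding genes 36.0%. CAL, 1 of the 3 marked flowering-time genes, acts with AP1, which was counted as a floral organ gene. The shares of the 2 roles thus depend on where CAL is placed. The Wilson intervals of the 2 roles overlapped over nearly their whole range. With so few genes a difference between floral organ and flowering-time genes was not tested. In the body 0 of 11 and 1 of 19 had one, against 33.0 and 33.6% of genes of like length. Of all protein-coding genes 26.1% did. The root and the other flower and seed genes had none, 0 of 4 in each, where genes of like length had 43.6 and 39.3%. The Wilson interval of 0 of 4 reached 49.0%, so a lack was not detectable.

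**Figure D2:**
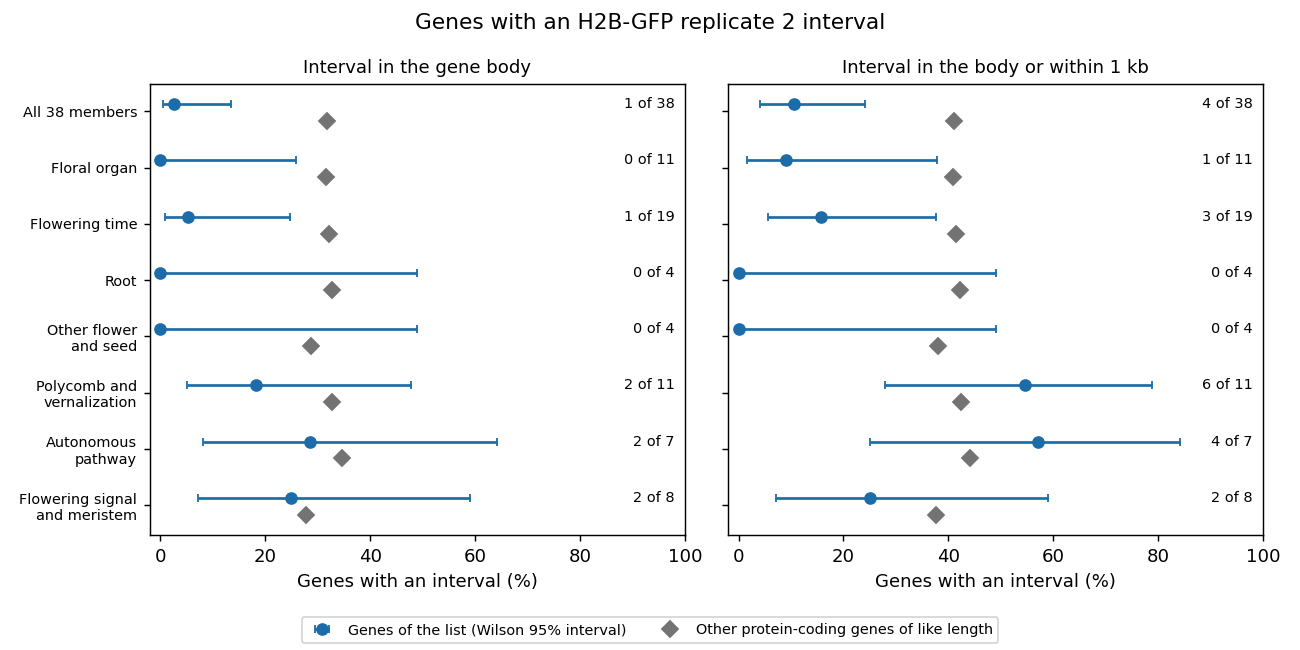
Share of genes with a replicate 2 H2B-GFP interval (x axis, %) in the gene body (left panel) and in the body or within 1 kb (right panel), for the members by role and for other gene lists, with Wilson 95% intervals (bars, counting error only) and counts. Diamonds give other protein-coding genes of like length: 31.7% in the body and 41.1% within 1 kb for all 38 members, where the members had 2.63 and 10.5%.

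Among the floral organ genes, SHP1 (AT3G58780), which with SHP2 sets the valve margin where the fruit opens, was the marked gene. Its replicate 2 interval on chromosome 3 (21743462 to 21743826) had a fold of 1.55 and a −log10 q of 1.61, ranking 7351 of 8608 by q. It came within 945 bases of SHP1 and had its summit in the neighbouring gene GAUT15. Replicate 1 had no interval closer than 52.6 kb to SHP1. SHP1 thus counted through the edge of a weak interval of the gene beside it.

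The other floral organ genes had no interval in either list. For AP1, which specifies sepals and petals and the floral meristem, the nearest interval lay 14.4 kb away in replicate 1 and 14.3 kb away in replicate 2, on opposite sides of the gene. For AP3 and PI, whose proteins pair to specify petals and stamens, the nearest intervals of both replicates overlapped each other. They lay 5.92 kb from AP3 in each list, and 2.47 kb and 2.23 kb from PI in replicates 1 and 2, where their summits were in DIN10. AG, needed for stamens and carpels and for ending the floral meristem, had its nearest intervals at 9.21 kb in replicate 1 and 5.49 kb in replicate 2. Both of these sat in other protein-coding genes, AT4G18940 and AT4G18950.

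The SEPALLATA genes, whose proteins are partners in all floral organ complexes, were bare in the same way. In replicate 2 the nearest intervals lay at 4.38 kb from SEP1, 2.40 kb from SEP2, 17.6 kb from SEP3 and 4.15 kb from SEP4. In replicate 1 they lay at 14.4, 15.9, 235.7 and 7.43 kb. SEP3 was the most isolated of the floral organ genes in both lists. SHP2 had its nearest intervals at 64.3 kb in replicate 1 and 4.05 kb in replicate 2, and STK, which directs ovule identity, at 10.7 and 9.51 kb, in EMB1691 both times.

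Among the flowering-time genes, FLC (AT5G10140), the repressor that vernalization silences, was the single member with an interval in its body. The replicate 2 interval on chromosome 5 (3179094 to 3179476) had a fold of 1.91 and a −log10 q of 3.05, ranking 2091 by fold and 3142 by q among 8608. It covered 355 bases, 5.85% of the gene, at the end with the higher coordinate, with the summit 109 bases from that end. As background, FLC is transcribed from the minus strand, so this is the end where its transcript starts. The gene table also places the non-coding RNA gene AT5G01675 over the summit, and ChIP does not tell strands apart. Replicate 1 had no interval in FLC. Its nearest lay 3.25 kb away in AT5G10150 and overlapped a replicate 2 interval there.

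CAL (AT1G26310), which acts with AP1 in floral meristem identity, had a replicate 2 interval 294 bases outside its body on chromosome 1 (9099157 to 9099700), with a fold of 1.70 and a −log10 q of 2.63. Its summit lay in the neighbouring gene AT1G26300, and the nearest replicate 1 interval was 139.7 kb away. AGL15 (AT5G13790), a repressor of flowering that also promotes embryo development, had one 883 bases outside its body on chromosome 5 (4447593 to 4447979). That interval had a fold of 1.70, a −log10 q of 2.20 and its summit in AT5G13780. Replicate 1 came no nearer to AGL15 than 2.28 kb, in PPH. Of the 4 intervals that marked members, then, 3 had their summit in another protein-coding gene and 1 in the member.

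The relatives of FLC had none. MAF2, MAF3, MAF4 and MAF5, tandem copies of an FLC-like repressor gene, stood in a stretch with no interval of either replicate. In replicate 2 the nearest lay 24.1 kb from MAF2 on one side, in CDKC2, and 14.9 kb from MAF5 on the other, in AT5G65130. The nearest of replicate 1 was 36.8 kb from MAF2. FLM, the temperature-responsive repressor on chromosome 1, had its nearest intervals at 24.4 kb in replicate 1 and 5.01 kb in replicate 2. Since neighbours share one stretch of chromosome, the 4 tandem MAF genes are not separate observations.

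The integrators and meristem genes were also without intervals. SOC1, which gathers the flowering signals, lay 10.6 kb from the nearest interval of replicate 1 and 5.33 kb from that of replicate 2. SVP, a repressor that works with FLC, lay at 74.9 and 10.2 kb. AGL24, which promotes flowering with SOC1, lay at 50.7 and 3.03 kb. FUL, which acts in the inflorescence meristem and the fruit, lay at 14.7 and 2.35 kb. In each of these genes the nearer interval was that of replicate 2, the longer list.

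AGL14, which acts in root patterning and in the floral transition, came closest to the 1 kb limit from outside in replicate 1. Its nearest interval there was at 2.00 kb (chromosome 4, 7140497 to 7140923, fold 1.88), and that of replicate 2 overlapped it at 2.17 kb (7140425 to 7140755) with a fold of 2.56 and a −log10 q of 9.74. Both had their summit in AT4G11870 and neither reached AGL14. AGL18, a repressor that acts with AGL15, lay at 3.37 and 1.88 kb from the nearest intervals of replicates 1 and 2. AGL16 lay at 2.35 and 21.4 kb, AGL19 at 78.5 and 16.2 kb, and AGL42 at 81.3 and 5.75 kb. The adjacent genes AGL71 and AGL72 lay at 64.0 and 68.0 kb in replicate 1 and at 6.64 and 10.6 kb in replicate 2.

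None of the root genes was close to an interval. AGL12, which acts in root growth and flowering, lay at 99.3 kb in replicate 1 and 10.8 kb in replicate 2. ANR1, which links nitrate to lateral root growth, lay at 367.0 and 13.1 kb. Its relatives AGL21 and AGL17 lay at 14.3 and 36.6 kb in replicate 1 and at 8.70 and 6.58 kb in replicate 2. All 4 were over 5 kb from any interval.

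Of the remaining flower and seed genes, TT16, needed for the inner seed coat, and GOA, which limits fruit growth, lay at 1.86 and 1.98 kb from the nearest replicate 2 intervals. In replicate 1 these distances were 6.29 and 69.1 kb. The GOA neighbour AT1G31130 held an interval with a fold of 2.26 and a −log10 q of 7.12 (chromosome 1, 11115107 to 11115964), stronger than that of any marked member. AGL6 lay at 7.26 and 7.03 kb in replicates 1 and 2, from intervals that overlapped each other in AT2G45630. AGL13, its close relative, lay at 19.2 and 5.71 kb.

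**Figure D3:**
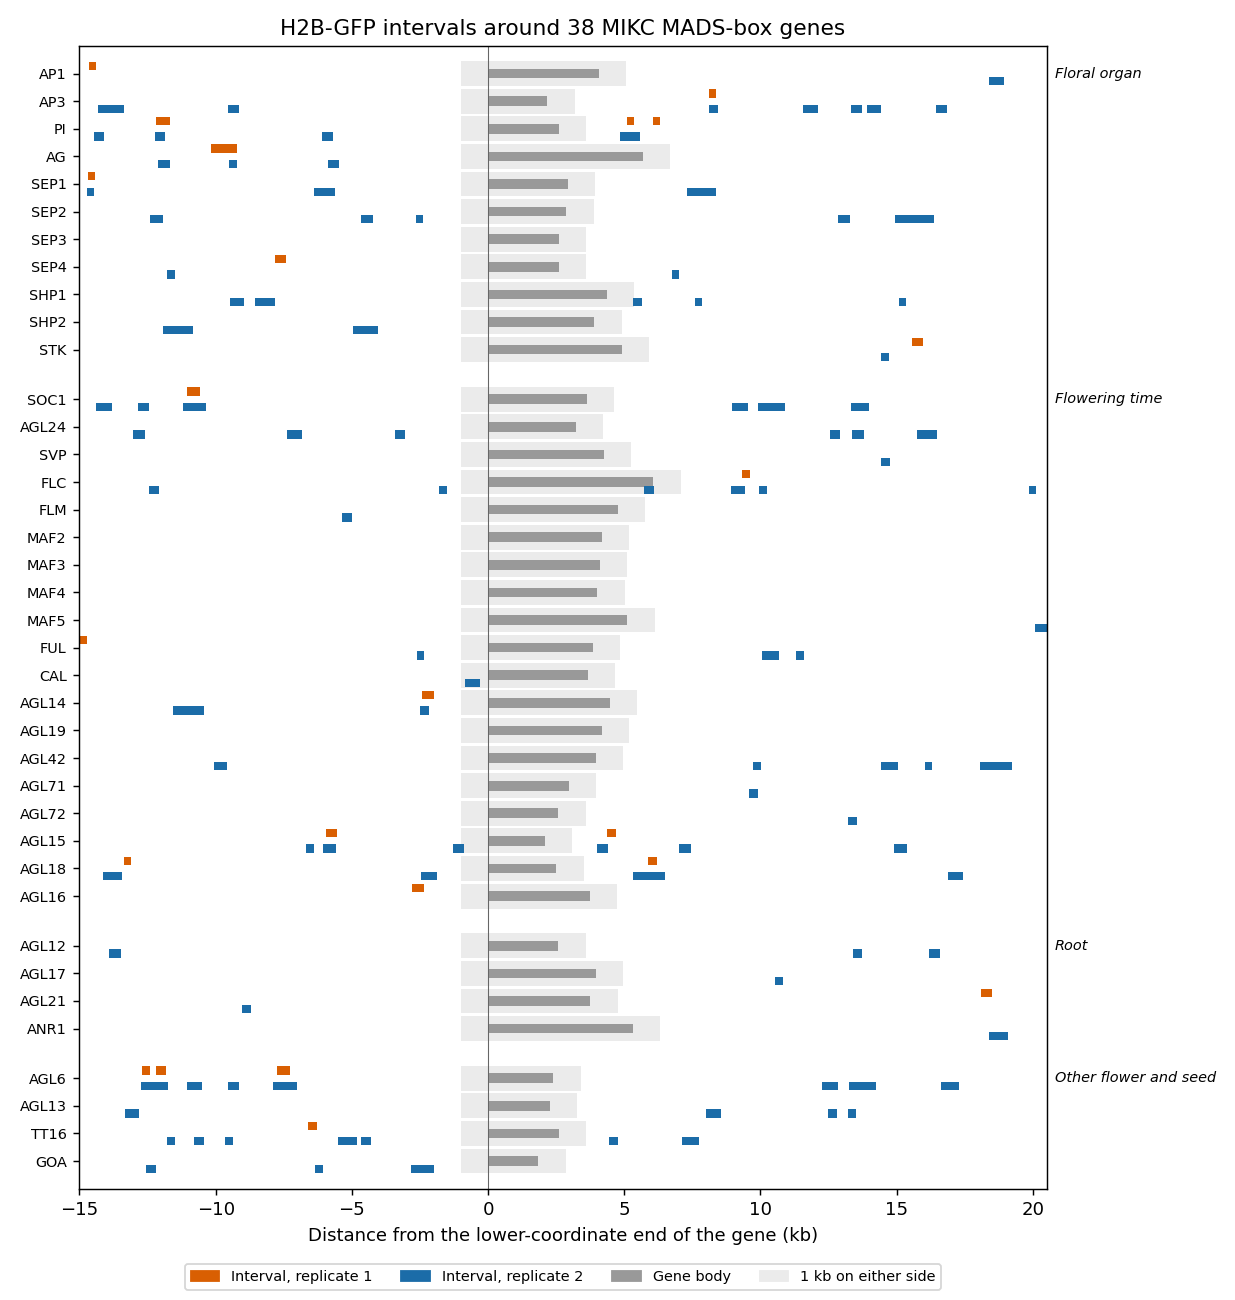
Each row is a MIKC gene drawn to scale from its lower-coordinate end (x axis, kb; gene strands are not drawn), with the gene body in grey, 1 kb on either side in pale grey, and H2B-GFP intervals of replicate 1 (orange, above the row) and replicate 2 (blue, below the row). Intervals are drawn at least 0.12 kb wide; they stand on both sides of many rows, and the row of FLC is the one where an interval meets the gene body.

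In replicate 2, member bodies were farther from an interval than other genes of the same length range. The median distance was 5.73 kb (quartiles 2.36 and 10.8) for the members and 2.09 kb (quartiles 0 and 7.19) for the 15036 other genes. Within 5 kb lay 15 of the 38 members (39.5%), against 66.8% of the other genes. In replicate 1 this was not so: the medians were 21.8 kb and 26.5 kb, and 6 members (15.8%) lay within 5 kb, against 16.4% of the others. The 2 lists thus gave different pictures at distances of a few kb. In the member bodies replicate 2 had 1 of 38. The 0 of 38 of replicate 1 was not tested against its low share in genes of like length, which its Wilson interval held.

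**Figure D4:**
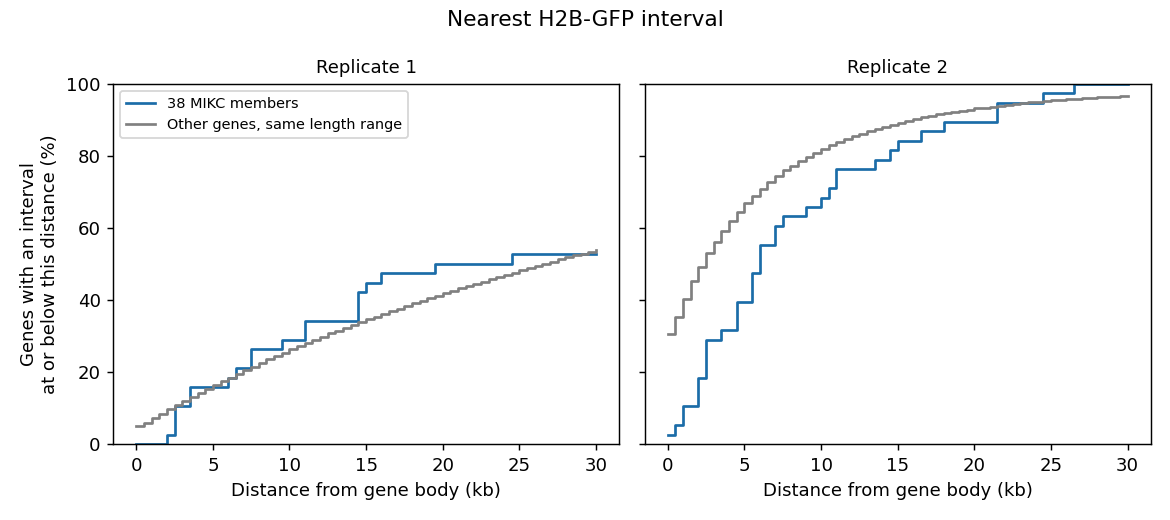
Share of genes (y axis, %) whose nearest H2B-GFP interval lies at or below a given distance from the gene body (x axis, kb), in replicate 1 (left panel) and replicate 2 (right panel), for the 38 MIKC members (blue) and 15036 other protein-coding genes of the same length range (grey). In replicate 2 the members reach 39.5% at 5 kb against 66.8%, while in replicate 1 they reach 15.8% against 16.4%.

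The genes next to the members were marked about as often as genes of like length in replicate 2. In replicate 1 their shares were higher but came from few genes, and the difference was not tested. This comparison was chosen after the members' values were seen. The nearest non-member protein-coding genes on each side came to 66, with a median length of 2373 bases. Of these, 24 had a replicate 2 interval within 1 kb (36.4%, Wilson 95% interval 25.8 to 48.4), against 36.9% of genes of like length. In their bodies 21 had one (31.8%, 21.8 to 43.8), against 27.1%. In replicate 1, 9 of the 66 were marked within 1 kb (13.6%, 7.34 to 23.9), against 6.41%, and 6 in the body (9.09%, 4.23 to 18.4), against 4.40%. Of all protein-coding genes 5.99 and 4.08% were. The Wilson interval for the body held the share of genes of like length, while that for 1 kb lay above the 6.41 and 5.99%. In the members' own bodies replicate 1 had none and replicate 2 had 1 of 38. Members stood somewhat apart from other genes: 30 of 38 (78.9%) had another protein-coding gene within 1 kb, against 83.1% in the length range, and the median distance to it was 669.5 bases against 141 bases. The part of this spacing in the counts was not tested. Counted by summits in the body, a rule chosen after seeing the data that leaves out intervals reaching in from a neighbour's summit, 1 of 38 members was marked, against 25.6% of all protein-coding genes and 32.7% of those of like length.

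Genes that act on the MADS-box genes were marked within 1 kb at shares around those of genes of like length. Among 11 genes of the Polycomb and vernalization machinery, 6 had an interval of either replicate within 1 kb (54.5%, Wilson 95% interval 28.0 to 78.7), against 44.0% of genes of like length. Of all protein-coding genes 36.0% did. VRN1 and LHP1 (TFL2 in the gene table), which act in keeping FLC silent, had theirs in the body, LHP1 with 2 of them at folds of 1.75 and 1.86. SWN, a histone methyltransferase, had an interval near it in each replicate, 350.0 bases off at a fold of 1.71 in replicate 1 and 359.0 bases off at 1.76 in replicate 2, but at different places. Of the 7 autonomous pathway genes, which lower FLC expression, 5 were marked (71.4%, 35.9 to 91.8), against 45.5%, and 36.0% of all protein-coding genes. These were FCA, FLD, LD and FPA in replicate 2 and FVE in replicate 1. In bodies the Polycomb list had 2 of 11 (18.2%, Wilson 95% interval 5.14 to 47.7), against 34.3% of genes of like length. The autonomous list had 3 of 7 (42.9%), against 36.2%. The share of all protein-coding genes in bodies was 26.1%. Replicate 2 intervals covered 24.7 bases per kb of the Polycomb bodies and 23.8 of the autonomous bodies, against 66.2 in the members' length range. In replicate 1 these were 0 and 6.80, against 7.28. The replicate 2 values rest on 1100 and 877 covered bases, so little can be read from them. FCA, at 8385 bases, also lies outside that length range.

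Among 8 flowering signal and meristem genes that are not MADS-box genes, 2 were marked (25%, 7.15 to 59.1), against 38.9% of genes of like length. The share of all protein-coding genes was 36.0%. LFY, the transcription factor that turns on AP1, had a replicate 2 interval in its body on chromosome 5 (24845241 to 24845579) with a fold of 2.00 and a −log10 q of 5.46, ranking 606 of 8608. FD, the partner of the flowering signal FT in the shoot tip, had one over 34.7% of its body with a fold of 1.65. FT, TSF, TFL1, FRI, AP2 and UFO had none. Replicate 2 intervals covered 58.9 bases per kb of the bodies of these 8 genes, resting on 1062 covered bases. Replicate 1 intervals covered 0. The Polycomb, autonomous and signal lists are small, and the Wilson interval of each holds the share of its genes of like length.

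AtGBPL3-GFP had no interval at any member, 0 of 38 in replicate 1 and 0 of 38 in replicate 2. Of all protein-coding genes 0.0693 and 0.109% had one, 19 and 30 genes, so a lack at 38 genes was not detectable. The nearest GBPL3 interval to any member lay 73.6 kb from FLC.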

How the data were processed

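The data are peak lists of the 4 pulldown libraries, 1 list per sample. The submitters' processing notes name the aligner BWA (0.7.12), the peak caller MACS2 (2.1.0) and the build TAIR10. The sources used here give neither their options nor any control library for the calls. The deposited lists give, per summit, the authors' fold enrichment (a linear ratio over local background), the authors' −log10 p and −log10 q, the authors' score (the whole-number part of 10 times that −log10 q) and a summit offset. Depth is not given.

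Lines with the same start and end were joined into 1 interval with the highest fold and −log10 q, and organelle intervals were left out. Genes came from a RefSeq table of TAIR10.1, used for names, lengths and placement, with no coordinates printed. As a check of fit, 91.2 to 93.5% of replicate 2 summits per chromosome lay in protein-coding genes, against 59.7 to 67.9% after a shift of 10000 bases. All 38 identifiers matched. Coordinates are those of the deposited intervals in TAIR10, counted from 1.

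Distances run from the gene body to the nearest base of an interval. Like length means within 10% of a member, members left out. Shares carry Wilson 95% intervals (scipy 1.17.1, Python 3.11.15). Every member is named. Members and lists were chosen with earlier results of these data known, so no set test was made. The counting was tested on simulated data. A planned list of further MADS-box genes is not reported here.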

Additional observations from a re-analysis of the deposited data

How the results depend on the processing

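The count of members with an H2B-GFP interval depended on the window and on replicate 2. It was 1 (FLC) in gene bodies alone or by summits in the body, 2 (FLC and CAL) with at least 50% of the interval or the summit inside the window, and 8 with 2 kb on either side. At a −log10 q of at least 2 it was 3 (FLC, CAL and AGL15). Leaving out each replicate in turn gave 0 to 4 for the members, 0 to 1 for floral organ genes, 0 to 3 for flowering-time genes and 7.50 to 41.1% for genes of like length. The members' count was 0 with both replicates needed. It was also 0 with the shortened list, where replicate 2 was cut to its 1361 strongest intervals and an interval of either replicate counted. Floral organ genes had 1 at 2 kb and 0 under each of the other windows, with both replicates needed, with the shortened list, and at a −log10 q of at least 2. Flowering-time genes had 1 in bodies or by summits in the body, 5 at 2 kb, and 0 with both replicates or the shortened list. They had 3 at a −log10 q of at least 2, and 2 with 50% of the interval or the summit inside the window. Genes of like length had 33.1% in bodies, 32.7% by summits in the body, 51.3% at 2 kb, 32.7% at a −log10 q of at least 2, 39.7% with 50% of the interval inside, 39.8% by summits in the window, 6.15% with both replicates, 13.1% with the shortened list and 43.9% away from centromeres by over 3 Mb. The last and the summit-in-body settings were chosen after seeing the data. Among all protein-coding genes the share was 36.0% with either replicate within 1 kb and 26.1% in bodies. It was 25.6% by summits in the body, 4.84% with both replicates, and 5.99 to 34.8% leaving out each replicate in turn. For the other settings no share of all protein-coding genes is given, so those counts stand beside genes of like length only. No paired analysis was possible because the counts come from no test. Depth is unknown, so intervals too weak to be called cannot be counted.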
